A study of Mus musculus with 6 samples.

Results

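The genes described here are 7 GABA receptor subunit genes, Gabra2, Gabra4, Gabra5, Gabrb1, Gabrg1, Gabbr1 and Gabbr2, measured by RNA-seq in cells sorted from the olfactory bulb of Sox9 KO and control mice. They were chosen by symbol, and all 7 were found among the 24421 genes listed in each of the 6 libraries. All 7 also passed the filter on low values, a minimum mean of 1 across libraries, which left 18413 genes to test.

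GABA is the main inhibitory transmitter of the adult brain, and the olfactory bulb is rich in cells that release it. The GABA-A receptor is a ring of subunits around a chloride channel, most often built from alpha, beta and gamma subunits, and the choice of subunits sets its sensitivity, its drug binding and its place in the membrane. The GABA-B receptor is a G protein-coupled receptor made of a ligand-binding subunit, encoded by Gabbr1, and a signalling subunit, encoded by Gabbr2. Neurons carry both kinds of receptor, and astrocytes, which take up GABA from around synapses, are known to carry them as well.

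The study asked how gene expression changes in adult olfactory bulb astrocytes when they lose Sox9, a transcription factor of the SOX family. All 6 mice were adult males, labelled as strain C57BL/6, and all received AAV-GFAP-iCre-P2a-TurboRFP in the olfactory bulb. In this virus the GFAP promoter drives the recombinase Cre and the red fluorescent protein TurboRFP. The 3 KO mice were Sox9fl/fl, with LoxP sites around part of Sox9, and the 3 controls were C57BL/6J mice with no floxed allele, so the controls carried Cre too. Cells with TurboRFP were sorted from the bulbs 4 weeks later, and each library thus holds whichever cells passed the gate. Because the cells went straight into lysis buffer, their purity was not measured after the sort. The authors state that they checked it instead with known cell-type markers in the RNA-seq data. The values are read counts divided by a size factor for each library and are called normalized counts.

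Reads on genes ranged from 18242129 to 86906527 per library, and 1 read was worth between 0.395 and 1.58 normalized counts. Sox9 was measured at 5185, 6562 and 4921 normalized counts in the controls and at 52.6, 64.3 and 57.7 in the KO libraries. The Sox9 level of every library thus matched its label. Astrocyte markers fell in the same KO libraries, as given below, and their part in the fall of Sox9 was not tested. The labelled cell type was checked with marker genes. Astrocyte markers were present in all libraries, but 14 of 14 were lower in KO, with a summed level of 545954 to 611670 in controls and 39175 to 51090 in KO. Microglia and macrophage markers were higher in KO for 12 of 12 genes, at 178573 to 203850 in controls and 640416 to 755964 in KO. Neuron markers were lower for 11 of 12 genes, at 21153 to 25059 and 3790 to 5830, and olfactory bulb interneuron markers for 10 of 10. Oligodendrocyte precursor markers were lower for 5 of 5, at 6447 to 7141 and 470 to 726. No marker of these lists was at 0 in any library.

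All 7 GABA receptor subunit genes fell in the Sox9 KO libraries, between 5.79-fold for Gabbr1 and 15.4-fold for Gabrb1. A gene was called when its adjusted p was under 0.05 in limma, with Benjamini-Hochberg adjustment over all genes tested, and its fold change was at least 1.5. By this rule 7 of 7 were lower, where of all genes tested 28.8% were lower, 22.2% higher and 51.0% changed in either direction. The 3 KO libraries lay below the 3 controls for 7 of 7. Of all genes tested, 34.7% had every KO library below the controls, 32.4% had every KO library above them, and 67.2% had either. The median log2 fold change, KO over control on log2(normalized count + 1), was -3.64 over the 7 and -0.07 over all genes tested. In sorted bulk samples, fewer cells of a type and less RNA per cell cannot be told apart. The part that the shift in marker genes has in these changes was not tested.

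**Figure D1:**
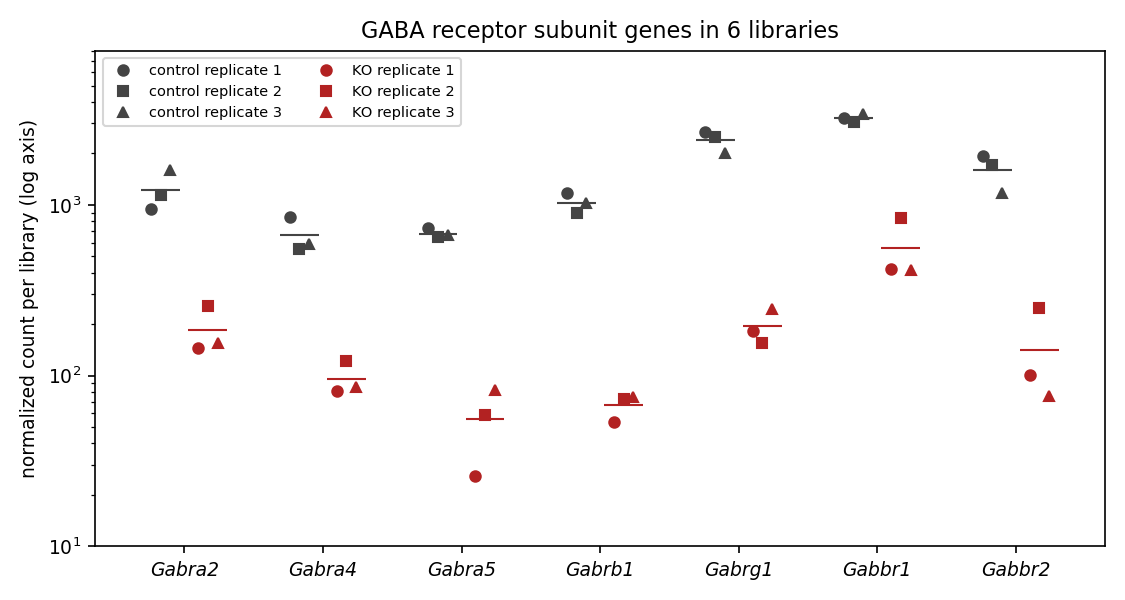
Normalized counts of the 7 GABA receptor subunit genes on a log axis, with 1 point per library (grey, control; red, KO; the shape gives the replicate number) and a bar at each group's mean. In each gene the highest KO point lies below the lowest control point, and the gap is narrowest for Gabbr1 (840 against 3044) and widest for Gabrb1 (74.4 against 895).

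Of the set, 3 genes encode alpha subunits, which form the GABA binding site together with a beta subunit. Gabra2 encodes α2, a subunit of synaptic receptors that are sensitive to benzodiazepines. It was measured at 944, 1142 and 1592 normalized counts in the controls and at 145, 257 and 156 in the KO libraries. The groups lay far apart, although the controls spread more for Gabra2 than for the other alpha genes of the set. The means were 1226 ± 332 and 186 ± 61.4 (SD, n = 3), a log2 fold change of -2.73 (SE 0.24, limma adjusted p = 4.5e-06).

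Gabra4 encodes α4, which is insensitive to classical benzodiazepines and is often found in receptors outside the synapse. Its normalized counts were 846, 553 and 593 in the controls and 81.4, 121 and 85.1 in KO. Control 1 was the highest library, and the lowest control was still several times the highest KO library. The log2 fold change was -2.78 (SE 0.22, limma adjusted p = 2.0e-06), from a mean of 664 ± 159 to 95.8 ± 21.8 (SD, n = 3).

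Gabra5 encodes α5, a subunit of receptors that are largely extrasynaptic and give tonic inhibition. It was measured at 728, 644 and 662 normalized counts in the controls and at 25.8, 58.4 and 82.0 in KO. The controls were close together and the KO libraries were not, and the lowest of them, KO 1, rested on 26 reads. The mean fell from 678 ± 44.0 to 55.4 ± 28.2 (SD, n = 3), which is 12.2-fold, with a log2 fold change of -3.73 (SE 0.35, limma adjusted p = 6.4e-06). It was the largest change among the 3 alpha genes of the set, but its 95% interval, -4.52 to -2.95, overlapped those of Gabra2 (-3.27 to -2.18) and Gabra4 (-3.28 to -2.28).

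Gabrb1 encodes β1, a beta subunit that is less widely expressed in the brain than the other beta subunits. Its normalized counts were 1168, 895 and 1031 in the controls and 53.6, 73.0 and 74.4 in KO. It had the lowest spread of the set within the KO group. The mean fell from 1031 ± 136 to 67.0 ± 11.6 (SD, n = 3), the largest fold change of the 7, at -3.93 on the log2 scale (SE 0.19, limma adjusted p = 6.2e-08).

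Gabrg1 encodes γ1, a gamma subunit with a restricted distribution that is found in glia as well as in some neurons. It was measured at 2690, 2513 and 2008 normalized counts in the controls and at 182, 156 and 245 in KO. Control 3 was the lowest control and KO 3 the highest KO library, and the groups stayed far apart. The log2 fold change was -3.64 (SE 0.18, limma adjusted p = 6.9e-08), from 2404 ± 354 to 194 ± 45.6 (SD, n = 3), or 12.4-fold.

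Both subunits of the GABA-B receptor fell. Gabbr1, whose product binds GABA, was measured at 3243, 3044 and 3409 normalized counts in the controls and at 421, 840 and 413 in KO. KO 2 held about as many Gabbr1 normalized counts as the other KO libraries together. The mean went from 3232 ± 183 to 558 ± 244 (SD, n = 3), with a log2 fold change of -2.61 (SE 0.23, limma adjusted p = 4.2e-06). This was the smallest change of the 7.

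Gabbr2, whose product couples the receptor to G proteins and carries it to the cell surface, had 1923, 1723 and 1166 normalized counts in the controls and 101, 250 and 76.0 in KO. KO 2 was again the highest KO library, and control 3 was the lowest control. The log2 fold change was -3.65 (SE 0.37, limma adjusted p = 1.2e-05), from 1604 ± 392 to 142 ± 94.0 (SD, n = 3), which is 11.3-fold. Its SE was the largest of the set.

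KO 2 was the highest KO library for 4 of the 7 genes, Gabra2, Gabra4, Gabbr1 and Gabbr2, and it also had the highest neuron marker sum of the KO libraries, 5830 against 3834 in KO 1 and 3790 in KO 3. Its interneuron sum was the highest too (1930 against 1207 and 1229). So was its astrocyte sum (51090 against 39175 in KO 1 and 44426 in KO 3). By mean log2 value the astrocyte list was highest in KO 3, at 10.15 against 10.12 in KO 2. The sums of microglia and macrophage markers and of oligodendrocyte precursor markers were not highest in KO 2. The same held for border macrophage, oligodendrocyte, endothelial and mural cell markers. By mean log2 value the precursor list was highest in KO 2, at 6.92 against 6.85 in KO 3. The sums of mitral and tufted cell markers (1100) and of olfactory ensheathing cell markers (2497) were highest in KO 2 as well. Gabra5, Gabrb1 and Gabrg1 were highest in KO 3, and Gabrg1 was lowest in KO 2. Whether RNA of any of these cell types in KO 2 has a part in these values was not tested.

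Levels were compared between genes as normalized counts per kb of exon. In the controls Gabbr1 stood first at 416 ± 23.6 per kb, followed by Gabrg1 (305 ± 45.0), Gabbr2 (240 ± 58.7), Gabra5 (228 ± 14.8), Gabra2 (160 ± 43.5), Gabra4 (109 ± 26.1) and Gabrb1 (74.5 ± 9.86; all SD, n = 3). The libraries of Gabrg1 and Gabbr2, of Gabbr2 and Gabra5, and of Gabra2 and Gabra4 overlapped, so these neighbours cannot be ordered. In KO Gabbr1 was still first at 71.9 ± 31.5 per kb and Gabrb1 still last at 4.84 ± 0.841. The KO levels of the other 5 ranged from 15.7 per kb for Gabra4 to 24.7 for Gabrg1 and overlapped. The isoforms in use were not resolved, and a gene read mainly as a short isoform has its level per kb understated.

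The place of each change among all genes tested was also recorded. A share of 2.43% of genes had a log2 fold change at or below that of Gabrb1, 3.14% for Gabra5, 3.50% for Gabbr2 and 3.55% for Gabrg1. The share was 8.62% for Gabra4, 9.09% for Gabra2 and 10.0% for Gabbr1. These shares are descriptions of the same fit and carry no test.

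Because astrocyte, neuron and microglia markers all shifted, each gene was also read relative to those lists within a library, as its log2 value minus the mean log2 value of the list. The 14 genes of the astrocyte list had log2 fold changes between -5.25 and -2.67, and the list itself fell by 3.67. Relative to it, the difference between KO and control was 0.03 for Gabrg1, 0.03 for Gabbr2, -0.06 for Gabra5 and -0.26 for Gabrb1, and the groups overlapped in all 4. The sign for Gabrg1, Gabbr2 and Gabra5 turned in some alternatives. Gabra2 was higher in KO relative to the astrocyte list by 0.94, Gabra4 by 0.89 and Gabbr1 by 1.06, with no overlap of groups. In a two-sided exact permutation test over libraries these 3 reached p = 0.10, the smallest value that 3 against 3 allows, and 0.233 after adjustment over the 7 genes. The log2 fold changes of Gabra2 (-2.73) and Gabra4 (-2.78) lay within the range of single astrocyte markers, and that of Gabbr1 (-2.61) just outside it. The differences are thus from the mean of the list and not from every gene in it. Over all genes tested the median log2 fold change was -0.07, so most genes tested were higher in KO relative to this list. The share of all genes without overlap on this scale was not computed.

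The neuron list fell by 1.99, and relative to it all 7 genes were lower in KO without overlap, from -0.62 for Gabbr1 to -1.94 for Gabrb1. Gabra2 (-0.74) and Gabra4 (-0.79) stood near Gabbr1, and Gabrg1 (-1.65), Gabbr2 (-1.66) and Gabra5 (-1.74) near Gabrb1. Each of the 7 had p = 0.10 in the two-sided exact permutation test, which cannot go lower. The share of all genes tested that were lower without overlap relative to the neuron list was not computed. Without reference to a list it was 34.7%. Relative to the microglia and macrophage list, which rose by 1.96, the differences ran from -5.89 for Gabrb1 to -4.57 for Gabbr1. On the same scale the olfactory bulb interneuron list changed by -3.39, further than the neuron list. The oligodendrocyte precursor list changed by -3.26 and the mitral and tufted cell list by -1.29. The genes were not read relative to these lists, so the neuron list does not stand for every neuron type.

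**Figure D2:**
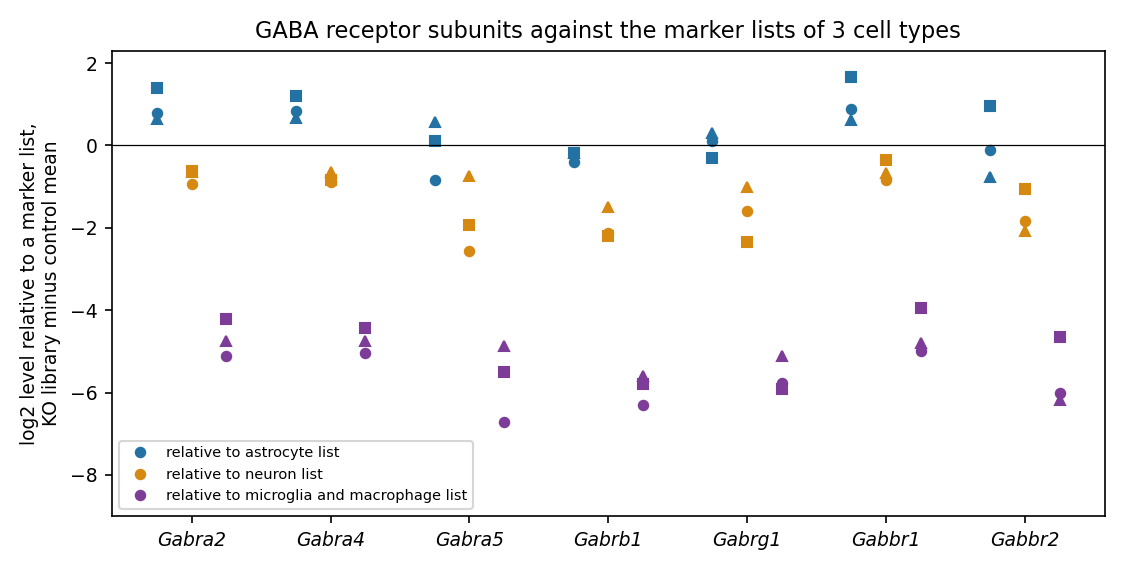
Log2 level of each GABA receptor subunit gene relative to the mean of a marker list in the same library, shown for each KO library (circle KO 1, square KO 2, triangle KO 3) as the difference from the control mean. Against the astrocyte list (blue) the points of Gabrb1 and Gabrg1 lie near 0 and those of Gabra2, Gabra4 and Gabbr1 above it, against the neuron list (orange) all lie below 0, and against the microglia and macrophage list (purple) they lie lowest.

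Ratios of 2 subunits within a library do not depend on how libraries are scaled. Of 8 pairs computed, 6 are given here, and 1 of these 6 had groups that did not overlap. The log2 ratio of Gabbr1 to Gabbr2 was 0.75, 0.82 and 1.55 in the controls and 2.04, 1.75 and 2.43 in KO. Every KO library stood above every control, and the ratio was higher by 1.03 (two-sided exact permutation p = 0.10, 0.267 after adjustment over the 8 pairs). Gabra2 to Gabra4 (0.05), Gabrg1 to Gabrb1 (0.29), Gabra2 to Gabra5 (1.01), Gabra4 to Gabra5 (0.96) and Gabrg1 to Gabra2 (-0.91) had overlapping groups, with exact p-values of 0.200 to 0.900.

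Among the other GABA-A subunit genes, 9 of the 12 tested fell, none rose and 3 were not called, with a median log2 fold change of -1.74. Over all genes tested, 28.8% were called lower and 22.2% higher. Gabrb2, whose product is part of the common synaptic receptor, fell by 1.81 on the log2 scale, from 1072 ± 110 to 318 ± 119 normalized counts (SD, n = 3). Gabra3 fell by 1.75, Gabrg3 fell by 1.37, and Gabrd, whose product is the extrasynaptic delta subunit, fell by 1.86. Under quantile normalization these 3 were still called, with log2 fold changes of -1.08, -0.71 and -1.01.

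Gabrq and Gabre also fell, but on few reads, with Gabrq at 12.1 ± 5.69 normalized counts in the controls and Gabre at 7.10 ± 5.62 (SD, n = 3). The call of Gabre (limma adjusted p = 0.047) was lost in 7 of 16 alternatives, among them without control 1, control 3, KO 1 or KO 2 (-2.02 to -1.55), while without control 2 it was -2.81, and that of Gabrq in 1. Gabrr1 and Gabrr2 had changes within their spread. Gabrp was at 0 in every library but KO 3, where it had 62.3 normalized counts, and Gabra6 and Gabrr3 had means under 1 and were not tested.

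Most GABA-A subunit genes lie in clusters, and 4 of the 7 genes share one. On chromosome 5 of GRCm38.p6, Gabrg1 (70751047 to 70842617), Gabra2 (70958392 to 71095849) and Gabra4 (71569734 to 71658308) lie on the minus strand and Gabrb1 (71657921 to 72149572) on the plus strand. Their log2 fold changes ran from -3.93 to -2.73. The 3 genes before the cluster were not called: Yipf7 had a log2 fold change of 1.02 at means of 0.525 and 2.46, Guf1 one of -0.51 and Gnpda2 one of -0.01. Guf1 was called lower when libraries were scaled to equal totals (-0.75), the same without Rn45s (-0.84), and without control 2 (-0.59). After it, Commd8 rose by 0.88 (limma adjusted p = 4.2e-05), but was under 1.5-fold (0.55) when libraries were scaled to equal totals without Rn45s. Atp10d (0.42) was called only under quantile normalization (0.71). Corin had a log2 fold change of 1.37 (limma adjusted p = 0.043) that was not called in 11 of 17 alternatives, including each left-out library except control 3 (1.12 to 1.53).

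Within the cluster, Cox7b2, a cytochrome oxidase subunit gene, fell by 2.23 from a mean of 23.0 normalized counts, with a log2 fold change of -1.56 without KO 1, and it was not called under quantile normalization. Gabra4 and Gabrb1 start head to head, and their RefSeq spans overlap by 388 bp, of which 46 are exonic in both. Gabra5 (chromosome 7, 57407669 to 57591016, minus strand) shares 148 exonic bases with Gm9962 on the other strand. Whether the counting used strand, and how it treated reads that lie on 2 genes, is not stated. Reads in these stretches could thus count for either gene or for neither.

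Gabra5 and Gabrg3 lie near each other on chromosome 7, with log2 fold changes of -3.73 and -1.37. Gabra3, Gabre and Gabrq share a cluster on the X chromosome, where the changes ran from -2.33 to -1.75. Gabbr1 (chromosome 17, 37045966 to 37074305, plus strand) and Gabbr2 (chromosome 4, 46662318 to 46991714, minus strand) lie apart from these clusters and from each other.

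Since the 7 genes moved together, the 250 bases before their starts were read in RefSeq's promoter table (GRCm38.p6) for the SOX core motifs ACAATG and ACAAAG on both strands. The motifs differ in 1 letter, so no single stretch counts for both. Among 32851 promoters of this length, 10.7% hold ACAATG and 16.5% hold ACAAAG, and the median has 6 CG dinucleotides. Of the windows of the 7 genes, including 2 for Gabrb1, ACAATG was found only in that of Gabrg1 and ACAAAG only in that of Gabbr1, each once and on the strand opposite to the gene. The windows of Gabra2, Gabra4, Gabra5, Gabrb1 and Gabbr2 held neither motif. A match is a run of letters and not a binding site, and its absence says only that these letters are not in the window.

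The 4 windows free of annotated exon bases are shown 5′ to 3′ on the gene's strand, with motif matches in capitals (read as CATTGT and CTTTGT on this strand). They are shown because they differ in base composition as well as in motifs. Gabrg1 (chr5:70842618-70842867, minus strand) has 35.6% GC and 1 CG. Gabbr1 (chr17:37045716-37045965, plus strand) has 66.0% GC and 16 CG, and Gabra2 (chr5:71095850-71096099, minus strand) has 70.0% GC and 18 CG. Gabra5 (chr7:57510060-57510309, minus strand) has 56.4% GC and 9 CG, and its window lies inside the gene's full span because the table starts it at an inner transcript start.
Gabrg1: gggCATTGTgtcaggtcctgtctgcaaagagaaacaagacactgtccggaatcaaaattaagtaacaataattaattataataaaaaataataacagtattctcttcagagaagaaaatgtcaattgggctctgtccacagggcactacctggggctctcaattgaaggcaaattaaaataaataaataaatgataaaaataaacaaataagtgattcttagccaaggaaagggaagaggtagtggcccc
Gabbr1: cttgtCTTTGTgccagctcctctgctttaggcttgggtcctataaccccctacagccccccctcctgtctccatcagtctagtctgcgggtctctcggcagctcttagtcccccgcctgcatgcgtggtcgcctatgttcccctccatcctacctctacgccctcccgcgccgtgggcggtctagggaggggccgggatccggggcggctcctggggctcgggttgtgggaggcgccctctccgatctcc
Gabra2: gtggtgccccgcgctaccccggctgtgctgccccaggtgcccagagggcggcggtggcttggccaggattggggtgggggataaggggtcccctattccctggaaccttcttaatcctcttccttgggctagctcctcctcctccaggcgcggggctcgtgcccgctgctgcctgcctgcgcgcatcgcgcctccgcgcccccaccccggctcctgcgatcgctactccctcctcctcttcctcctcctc
Gabra5: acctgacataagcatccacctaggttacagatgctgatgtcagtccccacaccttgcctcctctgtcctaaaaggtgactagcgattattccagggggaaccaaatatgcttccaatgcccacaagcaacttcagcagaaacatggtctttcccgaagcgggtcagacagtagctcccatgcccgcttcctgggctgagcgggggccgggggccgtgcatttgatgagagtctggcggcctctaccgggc

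The match begins at -247 relative to the start of Gabrg1 and at -245 relative to that of Gabbr1, so both lie at the far edge of the window. The log2 fold changes of these 2 genes were -3.64, the median of the set, and -2.61, the smallest in size. Beside the 1 CG of Gabrg1, the other windows held from 6 for the inner start of Gabrb1 to 37 for Gabbr2.

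Of 50 tested genes for other GABA receptor subunits and for proteins that assemble, anchor, couple or supply these receptors, 28 fell, 5 rose and 17 were not called, against 28.8% lower and 22.2% higher over all genes tested. Their median log2 fold change was -1.31. Among 15 genes for assembly and anchoring of GABA-A receptors, 6 fell and none rose. Nlgn2, an adhesion protein of inhibitory synapses, fell by 2.39 on the log2 scale. The auxiliary subunit genes Lhfpl4 and Shisa7 had log2 fold changes of -2.72 and -2.57, and that of Lhfpl4 was -2.13 under quantile normalization.

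Gphn, which encodes the scaffold gephyrin itself, was measured at 1088 ± 271 normalized counts in the controls and 916 ± 28.9 in KO (SD, n = 3), and was not called (log2 fold change -0.22, limma adjusted p = 0.26). Gabarap, a ubiquitin-like protein that binds gamma subunits and serves in autophagy, had a log2 fold change of 0.40 and stayed under 1.5-fold. Its relative Gabarapl1 fell by 0.77 and the trafficking adaptor gene Trak1 fell by 0.99.

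The partners of the GABA-B receptor did not move in 1 direction. Kctd12, which encodes an auxiliary subunit that speeds desensitization of the receptor, was measured at 64318, 56220 and 53962 normalized counts in the controls and at 166041, 165344 and 170535 in KO. It rose by 1.53 on the log2 scale (limma adjusted p = 1.8e-06) while Gabbr1 and Gabbr2 fell, and under quantile normalization the rise was 0.57 and no longer 1.5-fold. Kctd16 fell from 6.76 ± 1.83 to 0.526 ± 0.912 normalized counts (SD, n = 3), with 4 reads in KO 2 and none in the other 2 KO libraries, and DESeq2 did not call it. Kctd8 and Kctd12b were not called, at -0.66 and -0.09.

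Of 10 effector genes of the GABA-B receptor, 6 fell and 1 rose, beside 28.8% lower and 22.2% higher over all genes tested. Gnao1, the gene of the G protein subunit Gαo through which the receptor signals in neurons, fell by 4.07, from 15059 ± 716 to 902 ± 109 normalized counts (SD, n = 3). Gnai1 fell by 2.58, whereas Gnai2 (0.19) and Gnai3 (0.45) were not called. The potassium channel genes Kcnj3 and Kcnj6, whose channels open on receptor activation, had log2 fold changes of -3.02 and -2.96. Rgs7 and Rgs6, whose products shorten G protein signals, had -3.68 and -3.75. Under quantile normalization Kcnj6 was at -2.17 and Rgs6 at -3.11. Kcnj9 rose by 0.98 (1.70 under quantile normalization) at a low level, from 79.6 ± 18.6 to 157 ± 29.2 normalized counts (SD, n = 3), and was not called when libraries were scaled to equal totals without Rn45s, the ribosomal RNA precursor.

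Chloride transport sets the direction of the GABA-A current, and all 7 genes of that list changed, 4 down and 3 up. Over all genes tested, 51.0% were called in either direction. Slc12a5, the gene of the neuronal chloride exporter KCC2, fell by 2.14 and the chloride channel gene Clcn2 fell by 3.20. The kinase genes Stk39 and Wnk3 had log2 fold changes of -2.26 and -2.19. Slc12a2, the gene of the chloride importer NKCC1, rose by 1.24, from 5660 ± 400 to 13545 ± 2583 normalized counts (SD, n = 3), and the kinase gene Wnk1 by 1.34, or by 0.75 under quantile normalization. Slc12a7 rose by 0.72, and was under 1.5-fold (0.47 and 0.39) when libraries were scaled to equal totals with and without Rn45s.

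Dbi, which encodes a peptide that acts at the benzodiazepine site of GABA-A receptors and is abundant in astrocytes, fell from 18495 ± 1633 to 1905 ± 206 normalized counts (SD, n = 3), a log2 fold change of -3.28. Its relative Acbd7 fell by 1.25 on far fewer reads, and its call was lost in 5 of 17 alternatives, among them without control 1, control 2, KO 1 or KO 2 (-1.28 to -1.12). The partner genes were measured in the same libraries in which the marker genes shifted. They were not read relative to the marker lists, and the part of the marker shifts in their changes was not tested.

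**Figure D3:**
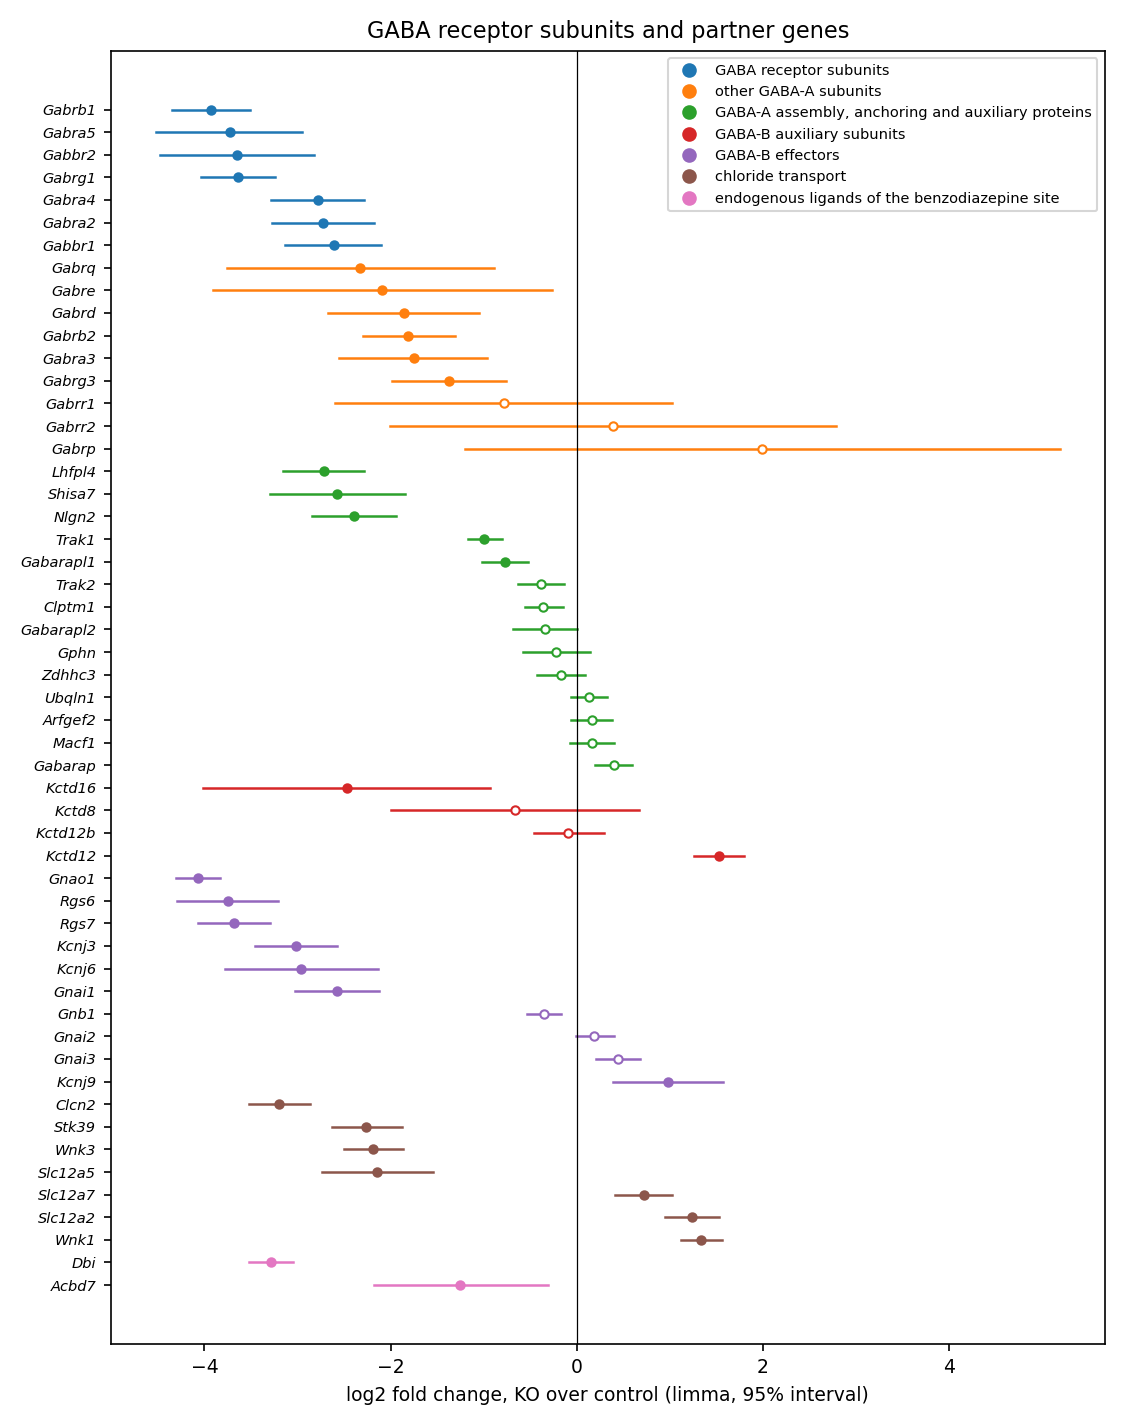
Log2 fold change, KO over control, with its 95% interval from limma, for the GABA receptor subunit genes and genes tested from 6 partner lists (colours give the list; filled points passed the rule of adjusted p under 0.05 and 1.5-fold). The 7 subunit genes lie between -3.93 and -2.61, and the filled points right of 0 are Kctd12, Kcnj9, Slc12a7, Slc12a2 and Wnk1.

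For each of the 7 genes, the 2 tested genes with the most similar pattern over the 6 libraries were found by Euclidean distance between log2 values centred on each gene's mean. Gabrb1 was nearest to Ephx2 (distance 0.19) and Trim9 (0.20), and Gabrg1 had Olig1 (0.32) as the second of its pair. Gabra2 was nearest to Slc16a14 (0.25) and Ctnna2 (0.31), Gabra4 to St8sia2 (0.23) and Lppr5 (0.29), and Gabra5 to Pacsin3 (0.30) and Cys1 (0.33). Gabbr1 lay closest to its neighbours, Frem2 (0.11) and Sez6l (0.12), and Gabbr2 farthest from its own, Taf7l (0.40) and Pnmal1 (0.42).

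None of these nearest genes was another GABA receptor subunit gene. Within the set, Gabra2 and Gabbr1 were the closest pair (0.55), followed by Gabra4 and Gabbr1 (0.63) and by Gabrb1 and Gabrg1 (0.73). The farthest were Gabra5 and Gabbr1 (1.89). Gabbr1 and Gabbr2, whose products pair in 1 receptor, were 1.49 apart. These distances are descriptions over 6 libraries, in which the size of the difference between KO and control has the largest part.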

How the data were processed

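RNA-seq libraries were made from TurboRFP-positive olfactory bulb cells of 3 control and 3 KO mice. The authors mapped reads to mm10 with STAR 2.5.0a, counted them per gene and normalized them with DESeq2 1.20.0. The deposited signal values, 1 per gene and library, are whole reads divided by 1 size factor per library: 100% were whole multiples of 1 step within 0.01 read. Neither the authors' gene annotation nor the strand setting of their counts is stated. The smallest step, the value of 1 read, limits precision for low genes.

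Genes with a mean of at least 1 (18413, with 6008 left out) were tested on log2(normalized count + 1) with limma 3.58.1 in R 4.3.3, two-sided, with a variance trend. The recovered reads were also tested with edgeR 4.0.16 and DESeq2 1.42.0. Ratios and levels relative to marker lists were compared by exact permutation over libraries. Groups and replicate numbers were taken from the sample titles, with 1 mouse per library. Exon lengths came from GENCODE vM21 and coordinates and promoters from RefSeq. The tests were checked on simulated data in which few genes changed, with equal numbers up and down. That check does not cover data in which 51.0% of genes are called. Pseudocount, filter, scaling, variance model, block, tool and libraries used were varied.

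The genes named are the 7 subunit genes, Sox9, the genes of 6 partner lists, the 3 genes on each side of the GABA-A gene clusters and the 2 genes nearest in pattern to each of the 7. Some genes that this rule names, and ratios with them, are not reported here. Genes and lists were chosen with earlier results of these data known.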

Additional observations from a re-analysis of the deposited data

How the results depend on the processing

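The 7 GABA receptor subunit genes were called lower, and none was called higher, under each of 17 alternatives, which gave 119 of 119 log2 fold changes with the same direction and call. At an unadjusted p under 0.05 in limma, 0 of the 7 were higher in KO. The log2 fold changes ranged from -3.05 to -2.46 for Gabra2, -3.10 to -2.31 for Gabra4, -4.09 to -3.21 for Gabra5, -4.25 to -3.51 for Gabrb1, -3.96 to -3.48 for Gabrg1, -2.95 to -2.44 for Gabbr1 and -4.15 to -3.29 for Gabbr2. Their median, -3.64, was -3.21 under quantile normalization and between -3.75 and -3.27 when 1 library was left out. Quantile normalization moved the median of all genes tested by 0.27, scaling to equal totals by -0.23 and the same without Rn45s by -0.31. Of the partner genes, 33 were called, and between 30 and 35 under the alternatives. The 5 that rose became 3 under equal totals without Rn45s. Replicate numbers were shared between the groups, but same-numbered libraries did not deviate together (correlations of -0.05, -0.01 and -0.01), and no library correlated best with its own number. With a replicate block 7 of 7 subunit genes and 33 partner genes were called, and 1 other named gene, Corin, lost its call (1.37, adjusted p = 0.055 in limma).

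Of 978 values for 58 other named genes, 911 kept direction and call, 31 lost the call, 13 gained it and 23 changed sign. The sign changes were in genes that were not called. Under quantile normalization, scaling to equal totals and the same without Rn45s, Arfgef2 was -0.10, -0.08 and -0.17, Gnai2 -0.26, -0.05 and -0.13, Macf1 -0.42, -0.08 and -0.16 and Ubqln1 -0.13, -0.11 and -0.19. Under quantile normalization Kctd12b was 0.18, Kctd8 0.13 and Gnpda2 0.01, and Gnpda2 was 0.03 in edgeR. Leaving out 1 library gave -0.26 to 0.01 for Kctd12b, -0.14 to 0.08 for Gnpda2 and -0.49 to 1.46 for Gabrr2. Relative to the astrocyte list, Gabra5 was 0.04 with a pseudocount of 5, and Gabrg1 and Gabbr2 were both -0.02 against a list without Gfap and S100b. Leaving out 1 library gave -0.37 to 0.33 for Gabra5, -0.10 to 0.21 for Gabrg1 and -0.44 to 0.42 for Gabbr2 on that scale, and -0.31 to 0.32 for the ratio of Gabra2 to Gabra4. The number of genes without overlap relative to the astrocyte list was then 3 to 5 (5 without KO 2), and that of the 8 ratios, 3 in the full set, was 3 to 6 (5 without control 3, 6 without KO 3). The cause of these shifts was not tested, and with a library left out fewer samples have to overlap. Depth limits Gabre, Gabrq, Gabrp, Kctd16 and the KO values of Gabra5, which rest on few reads.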
